A study of Mus musculus with 19 samples.

Results

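The erythroid lineage genes described here were 9 genes taken by their symbols: the transcription factor genes Gata1, Klf1 and Zfpm1, the receptor genes Epor and Tfrc, the enzyme genes Car1, Car2 and Alas2, and the membrane skeleton gene Ank1. They were 9 of the 16842 genes listed in the gene count tables, all 9 were listed in every cell set, and all 9 passed the filter on low counts in every comparison. They were taken with earlier results of these data known. RNA sequencing was done on 19 mouse bone marrow libraries. LK cells, which lack lineage markers, carry Kit and include progenitors and stem cells, came from animals of 18 months, with 3 mutant (MT) and 3 wild-type (WT) libraries. Myeloid cells sorted for Cd11b came from animals of 18 months (old, 3 MT and 3 WT libraries) and of 4 months (young, 3 MT and 4 WT libraries). The labels give the genotypes as MT and WT only, and the series title names mutant ASXL1. The allele, the promoter or Cre driver behind it, the strain and any treatment are not given in the sources used here. The labels do not say whether replicates are separate animals, so p-values measure only the spread between these libraries, which may be technical.

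Red cells arise from progenitors in the bone marrow that commit under GATA1 and its cofactor FOG1, the product of Zfpm1, and mature under KLF1. Erythropoietin, acting through the receptor encoded by Epor, keeps these progenitors alive, while the transferrin receptor encoded by Tfrc brings in iron for heme, whose synthesis starts in erythroid cells with the enzyme encoded by Alas2. Carbonic anhydrases and the ankyrin that ties the spectrin skeleton to the membrane appear as the cells develop, and an LK fraction holds such progenitors beside granulocyte and monocyte progenitors, whereas cells sorted for Cd11b are mainly granulocytes and monocytes.

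The letters before the start site are shown for the members in which a motif of the members' own transcription factors was found, because GATA1 and KLF1 are known to act on erythroid genes through GATA and CACCC motifs. RefSeq (GRCm38.p6) gave a promoter for 6 of the 9 members, and for Car1, Car2 and Ank1 none is shown. In the 250 bases before the RefSeq start, both strands were searched for GATA motifs (AGATAA or AGATAG or TGATAA or TGATAG) and for CACCC motifs (CCACACCC or CCCCACCC). The motifs of these 2 kinds share no letters where both matched a promoter. A GATA motif was found in 3 of the 6 promoters, those of Klf1, Epor and Alas2, against 26.5% of 32851 mouse promoters of the same length. A CACCC motif was found in 3 of the 6, those of Gata1, Epor and Alas2, against 11.8% of all promoters. The 2 CACCC matches in Alas2, 40 and 35 bases before the start, overlap each other and lie outside the stretch printed here. Neither motif was found in the promoters of Zfpm1 or Tfrc, whose GC contents of 73.2% and 64.8% were above the median of 52.4% over all promoters. A match is a description of the letters and not a site of binding. Each stretch is written 5′ to 3′ on the strand of the gene, with matches in capitals, and ends before the GENCODE start where that lies within the window. Gata1 (chrX:7967911-7968160, minus strand) has its CACCC match 55 bases before the RefSeq start. Klf1 (chr8:84901732-84901927, plus strand) has its GATA match 80 bases before the start, and in Alas2 (chrX:150547167-150547374, plus strand) it lies 86 bases before. Epor (chr9:21963577-21963826, minus strand) carries both, the CACCC match 124 and the GATA match 54 bases before the start.
Gata1: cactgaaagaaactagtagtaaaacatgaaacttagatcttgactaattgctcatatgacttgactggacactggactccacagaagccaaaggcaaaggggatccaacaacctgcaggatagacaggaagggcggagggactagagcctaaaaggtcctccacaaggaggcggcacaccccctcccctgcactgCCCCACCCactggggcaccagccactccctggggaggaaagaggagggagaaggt
Klf1: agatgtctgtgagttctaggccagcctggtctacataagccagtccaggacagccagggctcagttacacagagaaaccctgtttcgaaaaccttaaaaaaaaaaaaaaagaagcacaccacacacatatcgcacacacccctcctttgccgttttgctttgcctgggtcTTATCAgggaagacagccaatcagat
Epor: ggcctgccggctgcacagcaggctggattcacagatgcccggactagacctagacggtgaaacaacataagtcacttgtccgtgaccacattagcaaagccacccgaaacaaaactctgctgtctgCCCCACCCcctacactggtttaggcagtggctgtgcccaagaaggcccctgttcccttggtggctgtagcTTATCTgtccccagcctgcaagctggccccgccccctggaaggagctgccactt
Alas2: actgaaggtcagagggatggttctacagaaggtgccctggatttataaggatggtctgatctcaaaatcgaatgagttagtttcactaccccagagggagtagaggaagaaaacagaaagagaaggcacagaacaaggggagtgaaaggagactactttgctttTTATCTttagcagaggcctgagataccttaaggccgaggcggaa

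Gene counts summed to 26251822 to 38347903 per young library, 41909460 to 68260809 per old library and 31853263 to 59882448 per LK library. Levels are given as CPM, gene counts brought to a common library size, scaled within each cell set by its own TMM factors, and CPM per kilobase of exon where genes are compared with each other. The sort genes followed the labels: Kit was at 206.1 to 274.8 CPM in LK libraries against 50.3 to 114.8 CPM in Cd11b libraries, and Itgam, which encodes Cd11b, was at 2589 to 2820 CPM in the old and 1472 to 1812 CPM in the young Cd11b libraries against 57.1 to 103.4 in LK libraries. Asxl1 itself was at 116.1 CPM in LK MT and 140.9 CPM in LK WT libraries (edgeR log2 fold change -0.28 ± 0.06 SE, adjusted p 0.0119). It was not called in old cells (-0.01) or young cells (-0.13). In young cells, MT replicate 3 and WT replicate 4 stood apart, with Ddx3y at 103.8 and 109.1 CPM where the other 5 libraries were at 0 to 0.0367 CPM, and with Xist at 0 and 0.306 CPM where those 5 were at 1687 to 1969 CPM. In every 18-month group, replicates 2 and 3 were closer to each other than to replicate 1: a chi-square of their counts gave 3.02 to 6.74 per degree of freedom against 14.6 to 47.6 for pairs with replicate 1.

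In LK cells 4 of the 9 erythroid genes fell in MT libraries and the other 5 were not called. The 4 were Ank1, Car1, Zfpm1 and Tfrc, called at an adjusted p under 0.05 by edgeR's quasi-likelihood test with Benjamini-Hochberg adjustment over all genes, where 15.9% of the 14113 genes tested were called lower. None was called higher. The fitted log2 fold changes of all 9 were below 0, from -0.59 to -0.03 with a median of -0.17, against a median of 0.02 over all genes. The MT and WT libraries did not overlap for 6 of the 9 (Gata1, Klf1, Epor, Tfrc, Car1 and Ank1), all with MT lower, where 23.5% of all genes had such separate groups with MT lower. The summed level of the 9 genes was 4527 to 4800 CPM in MT and 5171 to 5202 CPM in WT libraries. In sorted bulk cells, fewer erythroid progenitors and less of these RNAs per progenitor cannot be told apart.

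**Figure D1:**
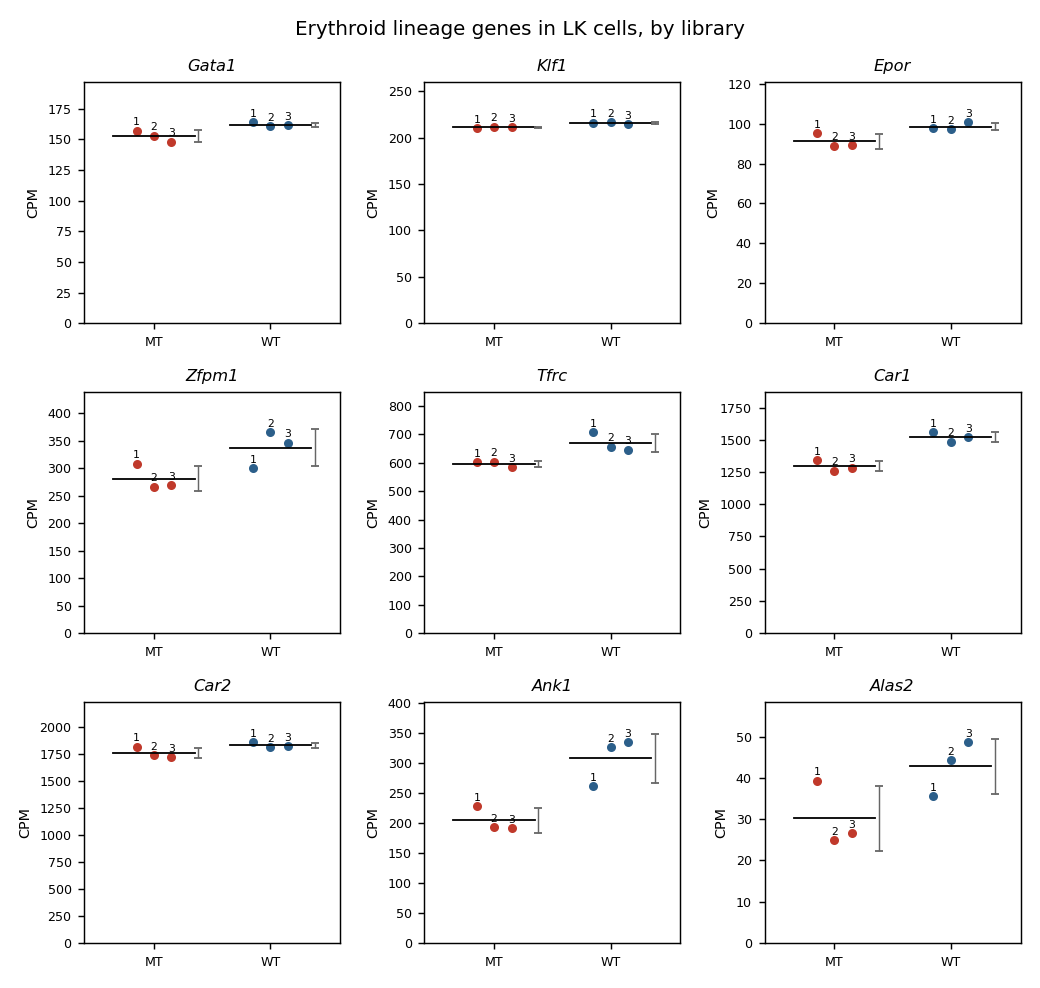
CPM of each erythroid lineage gene (vertical axis, from 0) in the 3 MT (red) and 3 WT (blue) LK libraries, with the replicate number at each point, a black line at the group mean and a grey bar for ± 1 SD. Ank1 sits at 191.6 to 228.1 CPM in MT and 261.0 to 334.8 CPM in WT libraries, while Klf1 spans only 210.3 to 216.5 CPM over the 6 libraries.

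Of the transcription factors, Zfpm1 (chr8:122282141-122337251, plus strand) had the largest difference. Its level was 308.0, 266.6 and 268.6 CPM in MT replicates 1 to 3 and 299.8, 365.4 and 346.4 CPM in WT replicates 1 to 3. MT replicate 1 lay above WT replicate 1, so the groups overlapped, while MT replicates 2 and 3 lay below every WT library. Zfpm1 fell by 16.7%, with a log2 fold change of -0.26 ± 0.08 (SE) and an edgeR adjusted p of 0.0482. Gata1 (chrX:7959260-7978071, minus strand), the master regulator that Zfpm1's product assists, was at 157.1, 153.1 and 148.0 CPM in MT and 163.8, 160.7 and 161.6 CPM in WT libraries. All MT libraries were below all WT libraries, by a small margin. Its log2 fold change of -0.09 ± 0.04 was not called (edgeR adjusted p 0.115). Klf1 (chr8:84901928-84905291, plus strand), which drives globin and membrane genes, was the steadiest member, at 210.3, 211.8 and 211.6 CPM in MT and 216.4, 216.5 and 214.9 CPM in WT libraries. The MT libraries were again the lower ones, and the difference was -0.03 ± 0.03 on the log2 scale (edgeR adjusted p 0.475).

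Both receptors were lower in every MT library than in any WT library, and the transferrin receptor passed the test. Tfrc (chr16:32608920-32632794, plus strand) was at 601.7, 604.0 and 584.1 CPM in MT and 707.5, 657.2 and 646.4 CPM in WT libraries. It fell by 11% (log2 fold change -0.17 ± 0.05 SE, edgeR adjusted p 0.0267). Epor (chr9:21958897-21963506, minus strand) was at 95.2, 88.9 and 89.2 CPM in MT and 97.8, 97.3 and 100.6 CPM in WT libraries. The gap between the groups was narrow, and the log2 fold change of -0.11 ± 0.04 was not called (edgeR adjusted p 0.0668).

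Among the enzymes, the carbonic anhydrase gene Car1 changed and its relative Car2 was not called. Car1 (chr3:14766216-14808368, minus strand), an early erythroid carbonic anhydrase, was at 1342, 1262 and 1284 CPM in MT and 1559, 1487 and 1520 CPM in WT libraries. The groups were well apart, and Car1 fell by 14.9% (log2 fold change -0.23 ± 0.04 SE, edgeR adjusted p 0.009). Car2 (chr3:14886273-14900770, plus strand), the most abundant member in CPM, was at 1818, 1741 and 1724 CPM in MT and 1861, 1816 and 1824 CPM in WT libraries. MT replicate 1 lay just inside the WT range, and the log2 fold change was -0.06 ± 0.04 (edgeR adjusted p 0.31). Alas2 (chrX:150547375-150570638, plus strand), which makes the first committed precursor of heme in red cells, was the member with the lowest level. It was at 39.3, 24.9 and 26.6 CPM in MT and 35.6, 44.3 and 48.7 CPM in WT libraries. MT replicates 2 and 3 were below every WT library and MT replicate 1 was above WT replicate 1, so that a fitted difference of -0.50 ± 0.19 on the log2 scale was not called (edgeR adjusted p 0.0883).

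Ank1 (chr8:22974844-23150497, plus strand), which encodes the ankyrin of the red cell membrane, had the largest change of the 9. It was at 228.1, 193.3 and 191.6 CPM in MT and 261.0, 326.8 and 334.8 CPM in WT libraries. Replicate 1 of each genotype was the library nearest to the other genotype, as for Zfpm1 and Alas2. Ank1 fell by 33.6% (log2 fold change -0.59 ± 0.11 SE, edgeR adjusted p 0.00942). Per kilobase of exon, the order in LK WT libraries was Car1 (1220 CPM per kb), Car2 (757), Klf1 (141), Tfrc (108), Zfpm1 (96.3), Gata1 (66.5), Epor (49.6), Ank1 (22.7) and Alas2 (17.9). The last pair overlapped between libraries and the other neighbours did not. The order in LK MT libraries was the same, from 1038 CPM per kb for Car1 to 12.6 for Alas2.

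How many members were called in LK cells depended on the libraries and on the correction for gene length. Over the 13738 genes with a known length, longer genes tended to have lower MT to WT ratios in LK cells (Spearman's rho -0.44 between log2 fold change and exon length, a description across genes, which are not independent replicates), and Ank1 and Tfrc are the longest members, with 13527 and 6185 bases of exon. With the length and GC trends removed from each library, 6 members were called lower, beside 11.6% of all genes: Gata1 (-0.19), Klf1 (-0.21), Epor (-0.25), Car1 (-0.44), Car2 (-0.17) and Ank1 (-0.35). Zfpm1 (-0.29, edgeR adjusted p 0.0522) and Tfrc (-0.11, 0.12) then missed the threshold, and all 9 stayed below 0. With replicates 2 and 3 of each genotype summed and counted as 1 sample, 0 members were called by edgeR, beside 0.0207% of all genes. In that fit 3 members (Ank1, Car1 and Tfrc) had an unadjusted p under 0.05, and the share of all genes that did is not given here. In a fit of all 19 libraries together 0 members were called, beside 21.2% of all genes. Leaving out 1 library at a time gave 1 to 6 called members: 1 (Ank1) without MT replicate 2 or MT replicate 3, 2 (Ank1 and Car1) without WT replicate 2, 3 (those and Tfrc) without WT replicate 3, 5 without WT replicate 1 and 6 without MT replicate 1. Ank1 was called in all 6 of these fits. The shares of all genes called in them are not given here, so these counts are not set against all genes. DESeq2 called the same 4 members as edgeR, and its share of all genes called in LK cells is likewise not given here.

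**Figure D2:**
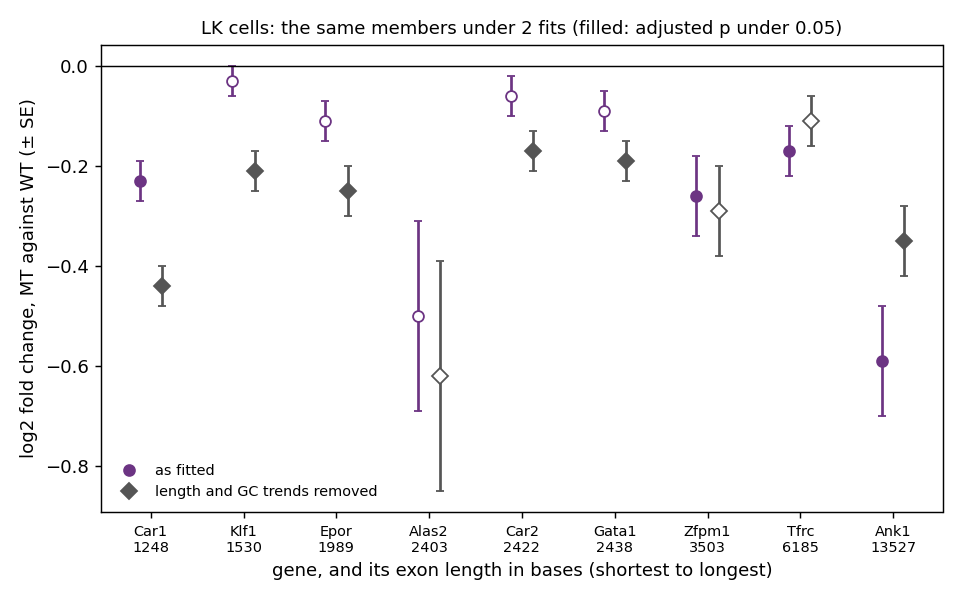
Log2 fold change of MT against WT in LK cells (vertical axis, ± SE) for the 9 members, ordered by exon length from 1248 bases (Car1) to 13527 bases (Ank1), as fitted (circles) and with length and GC trends removed (diamonds); filled symbols have an edgeR adjusted p under 0.05. All 18 values lie below 0, the shorter genes move down and Ank1 and Tfrc move up with the correction.

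Other genes of the erythroid programme were counted in the same LK fit, in which 15.9% of all genes were called lower and 13.9% higher. The red cell membrane list was the one with the most genes lower: 11 of 19 were called lower and 0 higher, with a median log2 fold change of -0.34. Spna1, which encodes alpha spectrin, fell from 178.1 to 100.4 CPM (-0.83 ± 0.14 SE, edgeR adjusted p 0.00891). Add2, a protein of the spectrin and actin junction, fell by 0.43, Xk, a membrane protein linked to Kell, by 0.44, and Rhag, the Rh-associated glycoprotein, by 0.34 on the log2 scale (edgeR adjusted p 0.00728 to 0.00835). With the length and GC trends removed, 10 of the 19 were called lower. Slc4a1, the anion exchanger band 3, chosen after its values were seen, was at 196.0, 109.7 and 108.3 CPM in MT and 193.3, 296.9 and 298.9 CPM in WT libraries. As for Alas2, MT replicate 1 lay inside the WT range, and Slc4a1 was not called (-0.93 ± 0.32, edgeR adjusted p 0.0886).

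Of 20 further erythroid regulators, 9 were called lower and 3 higher, with a median of -0.10 (7 and 1 with the length and GC trends removed). Foxo3, a regulator of red cell maturation, fell from 46 to 26.9 CPM (log2 fold change -0.77 ± 0.14 SE, edgeR adjusted p 0.00976). Tal1, which binds with GATA1, fell by 0.21, Zbtb7a, a repressor of fetal globin, by 0.22, and Ikzf1, a lymphoid and erythroid zinc finger factor, by 0.24 on the log2 scale (edgeR adjusted p 0.00882 to 0.0117). The 3 called higher, which like the other genes outside the naming rule were named after their values were seen, were Id1 (0.71 ± 0.20), Nfe2 (0.18 ± 0.04) and Lyl1 (0.17 ± 0.05), with edgeR adjusted p of 0.0169 to 0.0344, and none of them was called with the length and GC trends removed. Of 12 genes of erythropoietin signalling, 4 were lower and 2 higher. Stat5a and Stat5b, the transcription factors downstream of Epor, fell by 0.17 and 0.21, the inhibitor gene Sh2b3 fell by 0.31, and the survival gene Bcl2l1 rose by 0.32 on the log2 scale (edgeR adjusted p 0.00701 to 0.0115). Jak2, the kinase bound to the receptor, fell by 0.30 and the phosphatase gene Ptpn6 rose by 0.21 (edgeR adjusted p 0.0333 and 0.0147). Of the other 16 genes of heme synthesis, 3 were lower and 2 higher: among them Cpox and Fech fell (-0.39 and -0.35) and Glrx5, for iron-sulfur clusters, and Alas1, the form of Alas2 outside red cells, rose (0.25 and 0.21), with edgeR adjusted p from 0.00698 to 0.0327. The shares of the heme list called in each direction were near those of all genes. With the length and GC trends removed, 4 of the 16 heme genes were called lower and 2 higher, where 11.6% of all genes were called lower. Of the 12 genes of erythropoietin signalling, 2 were then lower and 2 higher. In that fit Stat5a (-0.06, edgeR adjusted p 0.211), Jak2 (-0.26, 0.0552) and Fech (-0.11, 0.116) were not called.

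Of 14 genes of iron handling, 5 were lower and 1 higher. Trfr2, the second transferrin receptor, fell by 0.23, Ncoa4, which delivers ferritin for breakdown, by 0.49, and the iron regulatory protein genes Ireb2 and Aco1 by 0.21 and 0.18 on the log2 scale (edgeR adjusted p 0.00675 to 0.0253). The iron transporter gene Slc11a2 fell by 0.16 and the ferritin light chain gene Ftl1 rose by 0.19 (edgeR adjusted p 0.0366 and 0.0393). With the length and GC trends removed, Ireb2 (edgeR adjusted p 0.15), Slc11a2 (0.139) and Ftl1 (0.808) were not called. In that fit 3 of the list were called lower and 1, not named here, higher. The list summed to 3481 to 3673 CPM in MT and 3423 to 3490 CPM in WT libraries, so the groups overlapped. Of 9 genes of early erythroid progenitors only Samd14 was called, lower by edgeR (-0.20, adjusted p 0.0137). With the length and GC trends removed, 2 of the 9 were called lower, beside 11.6% of all genes. Of the globin list 4 of 10 genes were tested and 0 called by edgeR. Beta-s, an adult beta globin gene, was at 338.5, 216.1 and 205.6 CPM in MT and 256.4, 318.2 and 310.8 CPM in WT libraries, with MT replicate 1 the highest of the 6. Hba-a1, an alpha globin gene, was at 154.2 to 187.6 CPM in MT and 156.6 to 200.1 CPM in WT libraries, fully mixed. The globin genes have near-identical copies, so that their counts are uncertain. 

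Some markers of other cells were also called in MT LK cells, where 15.9% of all genes were called lower and 13.9% higher. Fewer of these markers were called with the length and GC trends removed. The granulocyte and monocyte progenitor list had 8 of 10 genes called higher, among them Mpo and Elane, and 2 lower, Csf1r and Irf8, in MT LK cells (2 and 1 with the length and GC trends removed), with a summed level of 17897 to 21426 CPM in MT and 15888 to 17444 CPM in WT libraries. Mature neutrophil markers summed to 1324, 4476 and 4306 CPM in MT replicates 1 to 3 and to 1171, 595.8 and 572.6 CPM in WT replicates 1 to 3; 1 of 10, S100a8, was called higher (not with those trends removed, edgeR adjusted p 0.0775), and none of the 10 was at 0. Megakaryocyte markers summed to 710.7 CPM in MT replicate 1 and to 387.3 to 499.6 CPM in the other 5 LK libraries, and 1 of 13, Pf4, was called higher (not with those trends removed, edgeR adjusted p 0.437). Of the mast cell and basophil markers, 4 of the 8 tested were called lower, Cpa3 (-0.36), Ms4a2 (-0.98), Mcpt8 (-0.25) and Prss34 (-0.34), and 1 higher, Gzmb (0.50), on the log2 scale. With the trends removed the 4 were also called lower, and Gzmb was not called (0.30, edgeR adjusted p 0.191). In that fit 1 other marker of the list, not named here, was called higher. The list summed to 293.3 to 328.5 CPM in MT and 321.0 to 358.8 CPM in WT libraries, so the groups overlapped. Of the T and NK cell markers, 3 of the 9 tested (Cd8a, Nkg7 and Gzma) were called higher, Cd8a alone with the trends removed, and they summed to 241.2 to 305.5 CPM in MT and 197.7 to 237.5 CPM in WT libraries. Replicate 1 of each genotype, nearest to the other genotype for Ank1, Zfpm1 and Alas2, was also nearest for the neutrophil and the granulocyte and monocyte lists. Kit, used in the sort, was called lower in MT cells (-0.26 ± 0.08, edgeR adjusted p 0.0362), but not with the trends removed (-0.11, edgeR adjusted p 0.184), and its groups overlapped, with 243.2 CPM in MT replicate 1 and 241.0 CPM in WT replicate 1. The part of these lists in the erythroid differences was not tested.

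The genes whose log2 levels over the 6 LK libraries were most like the mean of the 9 members were Eps15, Cdc25b, Clic4, Fam84b and Msh3, with Pearson's r of 0.998 to 0.999 among 9048 genes searched. As 883 of those genes had an r above 0.95, such likeness was common in these 6 libraries, which share the genotype split. Clic4, a chloride channel protein gene, had a log2 fold change of -0.31, Cdc25b, a phosphatase gene of the cell cycle, of -0.34 and the mismatch repair gene Msh3 of -0.23 (edgeR adjusted p 0.00968, 0.0141 and 0.0176). Eps15 (-0.11, edgeR adjusted p 0.0633) and Fam84b (-0.18, 0.0739) were not called. All 5 were picked for following a mean that differs by genotype in these same libraries, so these p-values are no independent support.

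Old Cd11b cells held little RNA of these genes, and more of it in 2 of the 3 MT libraries. The edgeR test called 0 of the 9, beside 0.336% of 13398 genes, although the fitted log2 fold changes were all above 0, from 0.24 to 2.32 with a median of 1.16 (0.00 over all genes). Of the 9, 6 (Klf1, Zfpm1, Tfrc, Car1, Car2 and Ank1) had an unadjusted p under 0.05 by edgeR. The share of all genes at that level is not given here, so the count is not set against all genes. DESeq2 called 2 of these 6 higher, Klf1 and Zfpm1, beside 1.47% of all genes. With replicates 2 and 3 of each genotype summed and counted as 1 sample, 0 members were called by edgeR, beside 0.00718% of 13937 genes, and 0 members had an unadjusted p under 0.05, where 762 genes did. The groups did not overlap for 4 members (Klf1, Zfpm1, Car1 and Ank1), all with MT higher, where 11.2% of all genes had such separate groups.

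Klf1 was at 0.669, 3.5 and 3.42 CPM in MT replicates 1 to 3 and 0.61, 0.314 and 0.547 CPM in WT replicates 1 to 3 (2.32 ± 0.63 SE on the log2 scale, edgeR adjusted p 0.164). Car1 was at 2.33, 13.8 and 13.6 CPM in MT and 2.3, 2.13 and 2.1 CPM in WT libraries (2.18 ± 0.72, edgeR adjusted p 0.252). In both, MT replicates 2 and 3 stood far above the WT range and MT replicate 1 just above its upper edge. Ank1 was at 1.47, 5.78 and 5.92 CPM in MT and 1.31, 1.06 and 1.26 CPM in WT libraries (1.84 ± 0.52, edgeR adjusted p 0.183). Car2 was at 6.38, 28.6 and 28.1 CPM in MT and 6.26, 5.68 and 6.74 CPM in WT libraries (1.75 ± 0.63, edgeR adjusted p 0.278). Zfpm1 was at 3.02, 7.29 and 8.22 CPM in MT and 2.93, 2.7 and 2.62 CPM in WT libraries (1.16 ± 0.35, edgeR adjusted p 0.193). The pattern of libraries was the same in these genes, with Car2 of MT replicate 1 inside the WT range.

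Gata1, Epor, Tfrc and Alas2 had smaller differences and overlapping groups. Gata1 was at 1.4, 3.71 and 2.91 CPM in MT and 2.72, 2.05 and 1.83 CPM in WT libraries. Epor was at 1.08, 2 and 2.33 CPM in MT and 1.25, 1.38 and 1.36 CPM in WT libraries. For both, MT replicate 1 was the lowest of the 6 libraries. Tfrc, with roles outside red cells, was at 48.7, 59.3 and 58.9 CPM in MT and 51.1, 46.8 and 44 CPM in WT libraries. Alas2 was at 1.57, 3.99 and 3.67 CPM in MT and 1.24, 2.95 and 2.56 CPM in WT libraries, so that replicate 1 was low in both genotypes. All 9 members were above every WT library in MT replicate 2 and in MT replicate 3, and 4 were in MT replicate 1. The share of all genes that were so is not given here. The ratio to the WT mean had a median of 2.65 in MT replicate 2, 2.99 in replicate 3 and 1.03 in replicate 1.

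Without MT replicate 1, 5 members were called higher by edgeR (Klf1, Zfpm1, Car1, Car2 and Ank1), beside 1.36% of all genes. The red cell membrane list had a median log2 fold change of 1.46 with 17 of 19 genes above 0 and 0 called by edgeR, and its summed level was 196.7, 265.4 and 266.3 CPM in MT and 212.0, 201.7 and 198.3 CPM in WT libraries. The globin sum followed the replicate number instead. It was 29.9, 87.8 and 85.9 CPM in MT and 34.6, 104.1 and 95.8 CPM in WT libraries. Replicate 1 was low in both genotypes, as for Alas2, and the sum was lower in MT replicates 2 and 3 than in WT replicates 2 and 3. Hba-a1 carried that, at 8.43, 39.7 and 43.1 CPM in MT and 21.5, 63.3 and 56.4 CPM in WT libraries, whereas Beta-s and Hbb-b1 were above every WT library in MT replicates 2 and 3. Beta-s was at 16, 36.6 and 33.3 CPM in MT and 10.6, 31.3 and 31.1 CPM in WT libraries. Of the 4 globin genes tested 3 had fitted differences above 0, with a median of 0.16, and 0 were called by edgeR. The early progenitor list was lower in MT by its sum, at 351.6 to 381.8 CPM in MT and 469.2 to 490.0 CPM in WT libraries, with separate groups. By its median log2 fold change the list was higher in MT, at 0.67, with 6 of 9 genes above 0. Its 1 called gene was Apoe, named after its values were seen, which has roles outside red cells (-0.42 ± 0.05 SE, edgeR adjusted p 0.0179). The part of Apoe in the sum was not tested. Macrophage markers, some of which mark cells that take up red cells in the marrow, summed to 482.6 to 570.9 CPM in MT and 574.1 to 639.1 CPM in WT libraries, with none of the 10 at 0. Eosinophil markers were below 0 in 8 of the 8 tested (median -0.67), with Ccr3 called lower (-0.67, edgeR adjusted p 0.0164), and summed to 185.7 to 191.8 CPM in MT and 230.9 to 361.6 CPM in WT libraries. B cell markers were above 0 in 10 of 10 (median 0.66) with 0 called by edgeR. They summed to 134.7, 50.7 and 50.3 CPM in MT replicates 1 to 3 and to 43.5, 63.8 and 61.4 CPM in WT replicates 1 to 3. Only MT replicate 1 lay above the WT range for that sum. The part of these lists in the levels of the members was not tested.

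**Figure D3:**
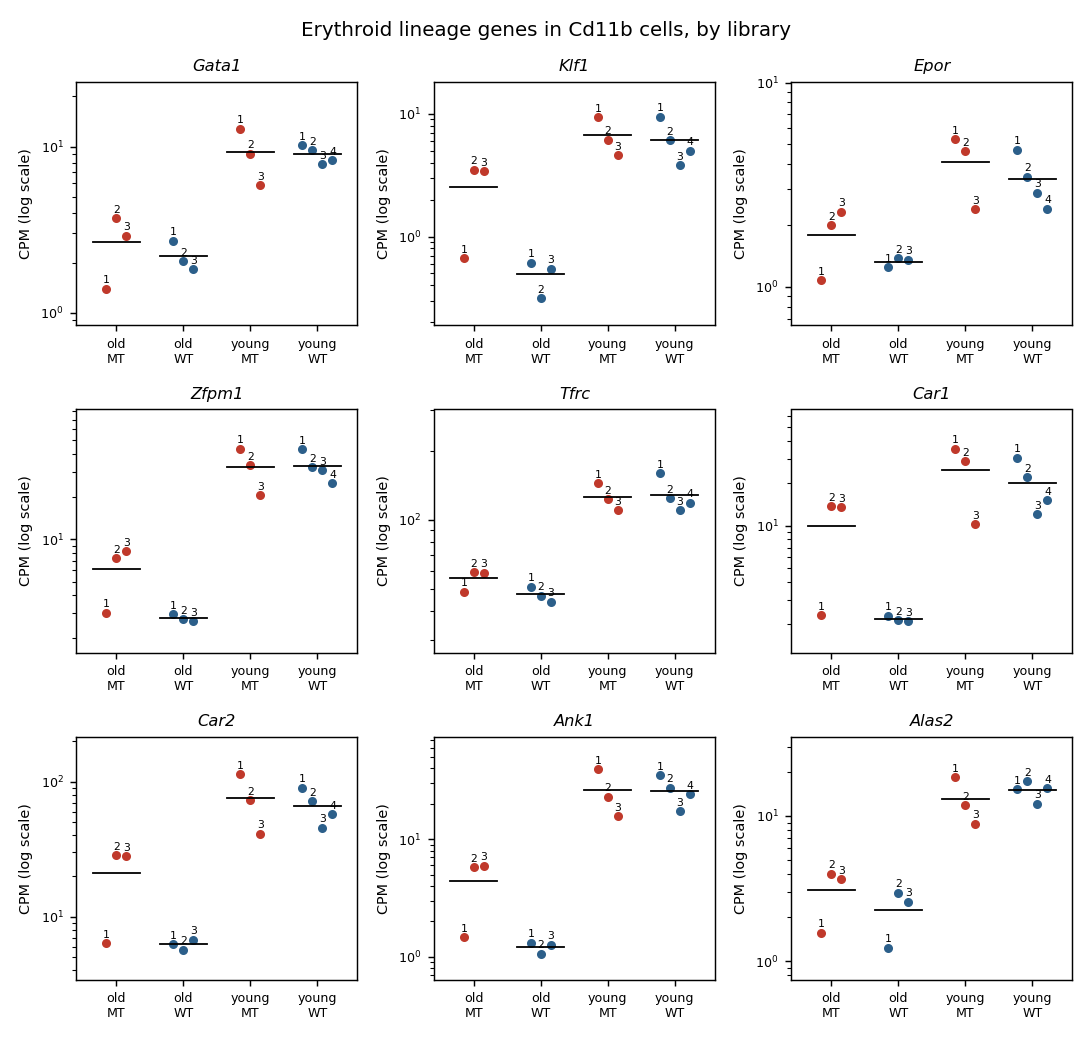
CPM of each erythroid lineage gene (vertical axis, log scale) in the 13 Cd11b libraries, MT in red and WT in blue, with replicate numbers and a black line at the group mean. In old cells MT replicates 2 and 3 lie above all WT libraries for all 9 genes, and in young cells the MT and WT points are mixed.

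In young Cd11b cells the members did not separate by genotype at this number of libraries. The edgeR test called 0 of the 9 and 0% of 13755 genes (444 genes and 0 members at an unadjusted p under 0.05); DESeq2 called 0.127% of all genes and 0 members. The groups overlapped for all 9, and log2 fold changes ran from -0.21 for Alas2 to 0.32 for Car1, with standard errors of 0.13 to 0.47. Car2 was at 113.4, 72.9 and 41.1 CPM in MT and 90.2, 71.5, 45.5 and 57.3 CPM in WT libraries. Ank1 was at 39.2, 23 and 15.7 CPM in MT and 34.9, 27.4, 17.3 and 24 CPM in WT libraries. Replicate 1 of each genotype was the highest of its group and MT replicate 3 the lowest library for both. Klf1 was at 9.42, 6.15 and 4.6 CPM in MT and 9.51, 6.09, 3.8 and 5.01 CPM in WT libraries, with WT replicate 3 the lowest. Among the 7 young libraries MT replicate 1 was the highest for 7 of the 9 members and MT replicate 3 the lowest for 7. For all 9 the SD within a genotype was larger than the difference between the genotype means. MT replicate 3 is 1 of the 2 libraries that stood apart in Xist and Ddx3y. Without it and WT replicate 4, Zfpm1 (0.12), Tfrc (0.03) and Alas2 (0.02) had log2 fold changes above 0 in place of -0.01, -0.03 and -0.21, and 0 members were called by edgeR.

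**Figure D4:**
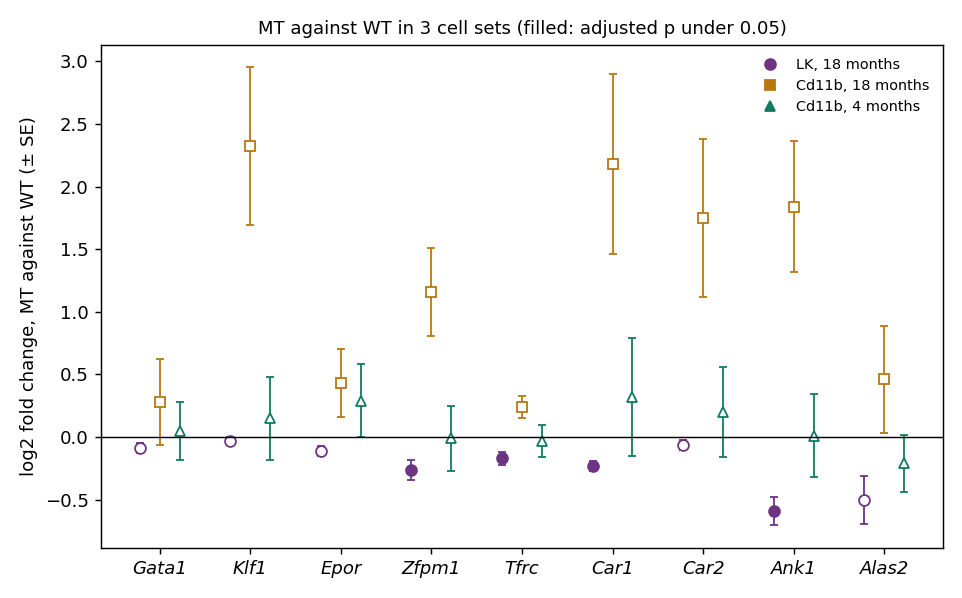
Log2 fold change of MT against WT (vertical axis, ± SE) for the 9 members in LK cells, old Cd11b cells and young Cd11b cells; filled symbols have an edgeR adjusted p under 0.05. All 9 values lie below 0 in LK cells and above 0 in old Cd11b cells, where the standard errors reach 0.72, and they lie on both sides of 0 in young cells.

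The difference between the genotype effects in LK and old Cd11b cells was tested with an interaction term, which uses the same libraries as both comparisons. Of the 9 members, 5 had an MT to WT ratio called lower in LK than in old Cd11b cells, beside 12% of 13996 genes: Ank1 (-2.42 ± 0.58 SE, edgeR adjusted p 0.0226), Tfrc (-0.41 ± 0.11, 0.0235), Zfpm1 (-1.42 ± 0.40, 0.0364), Klf1 (-2.32 ± 0.66, 0.0382) and Car1 (-2.41 ± 0.71, 0.0445). The other 4 were Car2 (-1.81, edgeR adjusted p 0.0699), Epor (-0.53, 0.14), Alas2 (-0.98, 0.214) and Gata1 (-0.37, 0.487). For Klf1 the term came almost wholly from the old cells, where its difference was 2.32, since it was -0.03 in LK cells. Ank1 had a difference on both sides, -0.59 in LK and 1.84 in old cells. Across genes, Spearman's rho between log2 fold change and exon length was -0.44 in LK and 0.19 in old cells. Ank1 and Tfrc are the longest members. The length and GC offsets and the sum of replicates 2 and 3 were not fitted for this term, so its calls are uncorrected for length. Without old MT replicate 1 all 9 were called, beside 13.4% of all genes. Leaving out 1 library at a time gave 0 to 9: 0 without old MT replicate 2 or 3, old WT replicate 2 or 3, LK MT replicate 2 or 3, or LK WT replicate 2, 1 (Tfrc) without LK WT replicate 3, 2 (Ank1 and Tfrc) without old WT replicate 1, and 3 (Ank1, Tfrc and Zfpm1) without replicate 1 of either LK genotype. Apart from the fit without old MT replicate 1, the shares of all genes called in these fits are not given here. The matching term between old and young Cd11b cells called 0 members, beside 0.0214% of 14024 genes, with 3 (Klf1, Zfpm1 and Ank1) at an unadjusted p under 0.05 by edgeR and 0 called by DESeq2. The share of all genes at that unadjusted level is not given here.

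All 9 members were higher in LK than in old Cd11b WT cells, and the size of the gap differed between them. All 9 were called higher by edgeR, beside 45.1% of 13710 genes, and all 9 had separate groups, beside 61.8% of genes. Car1 had the largest difference (log2 fold change 8.74 ± 0.07 SE), ahead of Klf1 (8.02 ± 0.12), Car2 (7.49 ± 0.09), Ank1 (7.27 ± 0.14) and Zfpm1 (6.23 ± 0.10). Gata1 and Epor were at 5.50 and 5.51, and Alas2 (3.57 ± 0.26) and Tfrc (3.12 ± 0.07) had the smallest. With all libraries on a common scale, old WT cells held 0.218% of the LK WT level of Car1 and 0.347% of that of Klf1, and 10.8% of that of Tfrc. The Cd11b levels were set by few reads for some members, since Klf1 had 13 to 37 counts in the old WT libraries.

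Young Cd11b WT cells held more of every member than old ones. All 9 were called lower in old than in young WT libraries, beside 36.9% of 13719 genes, and all 9 had separate groups, beside 49.2%. With all libraries on a common scale, Ank1 was at 1.48 CPM in old and 26 CPM in young WT libraries. Ank1 differed most (log2 fold change -4.14 ± 0.25 SE, edgeR adjusted p 4.76e-07), ahead of Klf1 (-3.32), Zfpm1 (-3.30), Car2 (-3.13), Car1 (-2.92), Alas2 (-2.49), Gata1 (-1.76), Tfrc (-1.17) and Epor (-1.07). The red cell membrane list went the same way, with 17 of 19 called lower and 1, the glucose transporter gene Slc2a1, called higher. Markers of other cells differed between the same libraries: of the lists' tested genes, 9 of 10 B cell, 7 of 8 eosinophil, 6 of 7 mast cell and basophil, 8 of 10 stem cell and 7 of 9 T and NK cell markers were called lower in old cells, with median log2 fold changes of -2.75, -2.75, -3.34, -2.25 and -2.09. Of the mature neutrophil markers 9 of 10 were called higher (median 1.42), beside 36.1% of all genes. The part of these lists in the differences of the members was not tested. The young WT level of Alas2 was 44% of that in LK WT cells, the highest such share among the members, and that of Car1 was 1.64%. Age, library set and, for 3 of the 4 young WT libraries, the sex-linked genes cannot be told apart here, since Ddx3y was at 62.3 to 62.4 CPM in the old WT libraries.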

How the data were processed

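Gene expression was measured in 19 mouse bone marrow libraries by RNA sequencing. Per the labels' protocols, 200 ng of total RNA per library went into a directional library kit. The deposited data were raw counts, 1 table of gene symbols and whole-number counts from the authors per library. The submitters' processing notes name STAR, HTSeq, DESeq2 and mm10; versions, annotation, strand setting and how reads with several matches were treated are not given in the sources used here. Tables of transposable element counts were not used. Groups and replicate numbers came from the sample titles.

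Each comparison was fitted on its own libraries with edgeR 4.0.16 (filterByExpr, TMM, robust quasi-likelihood test, R 4.3.3), and p-values were adjusted over all genes tested by Benjamini-Hochberg; called means an adjusted p under 0.05. Errors of log2 fold changes are standard errors (SE). CPM are counts over the filtered library size times its TMM factor. The fits were checked on simulated data in which all libraries were independent. That check does not cover the closeness of replicates 2 and 3 in the 18-month groups. Alternatives were RLE factors, no filter, DESeq2 1.42.0, the replicate number as a block, loess offsets (span 0.3) for exon length and GC content (96.2% to 96.6% of genes had a length from GENCODE), all 19 libraries in 1 fit, replicates 2 and 3 summed, and leaving out each library. Depth limits only the lowest values, such as Klf1 in old cells. Old symbols were matched through RefSeq synonyms.

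The named genes were the 9 members, up to 4 called genes with the smallest p from each other erythroid list (of the globin list, the 2 most abundant), Asxl1, Kit and Itgam, and the 5 genes most like the members over the LK libraries, at a mean of 10 CPM or more. The members and lists were chosen with earlier results of these data known. In LK MT cells the eosinophil, stem cell, B cell and macrophage markers had 0, 0, 1 and 1 genes called higher and 0, 1, 0 and 0 lower. The values of 1 called gene of the heme synthesis list are not reported here.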

Additional observations from a re-analysis of the deposited data

Results flagged for a closer look

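For 5 members the genotype effect differed between LK and old Cd11b cells by the test of the difference itself: Ank1 (log2 difference -2.42), Car1 (-2.41), Klf1 (-2.32), Zfpm1 (-1.42) and Tfrc (-0.41). Each had a lower MT to WT ratio in LK than in old Cd11b cells. In old cells these values rest on MT replicates 2 and 3, which stood above every WT library for all 9 members. Without either of them 0 members passed the test. That was also so without old WT replicate 2 or 3, LK MT replicate 2 or 3, or LK WT replicate 2. Without old MT replicate 1 all 9 passed, beside 13.4% of all genes.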

How the results depend on the processing

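In LK cells 0 of the 9 members were called by edgeR with the replicate block, with the length and GC offsets together with the block, in the fit of all 19 libraries and with replicates 2 and 3 summed, and 1 to 6 when 1 library was left out; all 126 alternative values for the members kept their sign. In old Cd11b cells DESeq2 called 2 members, and leaving out 1 library gave 0 to 5. The interaction of genotype with cell type had 2 called members with the replicate block (Ank1 and Tfrc) and 0 to 9 when 1 library was left out. Where the share of all genes called in a fit named here is not given above, the count is not set against all genes. The labels do not say whether libraries with the same replicate number belong together. Same-numbered deviations correlated at -0.33 to 0.44, over 0.1 in 2 of 9 pairs, and 1 library in 9 was closest to its own number. With so few libraries per group, these values cannot decide whether the numbers pair the libraries. The block changed no call of a member in the other comparisons. In young cells the sign of the log2 fold change was not stable. It turned with the replicate block for Gata1 (-0.05) and Ank1 (-0.07, and -0.05 with the offsets), with the offsets for Zfpm1 (0.07), and without both libraries that stood apart for Zfpm1 (0.12), Tfrc (0.03) and Alas2 (0.02). Leaving out 1 library gave -0.25 to 0.28 for Gata1, -0.17 to 0.45 for Klf1, -0.28 to 0.23 for Zfpm1, -0.13 to 0.10 for Tfrc, -0.02 to 0.69 for Car1, -0.21 to 0.50 for Car2, -0.41 to 0.26 for Ank1 and -0.54 to 0.00 for Alas2. It gave -0.04 to 0.59 for Gata1 in old cells, and -0.10 to 0.55 for Gata1 and -0.12 to 0.42 for Epor in the interaction of genotype with age. The causes were not tested. The 9 calls in LK against old Cd11b WT cells and in old against young WT cells held under every alternative run.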
